A study of Mus musculus with 4 samples.

Results

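The amino acid transporters examined here were the 60 genes of the solute carrier families Slc1, Slc3, Slc6, Slc7, Slc36, Slc38 and Slc43 in the RNA-seq table of day 5 cardiac progenitor cells (CPCs), out of 20701 gene symbols in all. Members were found by gene symbol alone, and symbols that end in a letter, such as Slc6a20a, were not taken. In addition, 1 imprinted Slc38 gene was left out, and of the 19 members with several transcripts the transcript with most reads was kept. The CPCs had been differentiated from mouse E14 embryonic stem cells (ESCs) that carry an emerald GFP reporter for the cardiac gene Nkx2-5, and GFP-positive cells were sorted by flow cytometry for RNA extraction. Libraries 1 and 2 of the Baf60c KD group came from ESCs in which Baf60c was stably knocked down (KD) by short hairpin RNA (shRNA), and libraries 1 and 2 of the control group came from the control reporter ESCs. For stable knockdown, the study's methods describe viral transduction of ESCs with shRNA or a control vector (pLKO), followed by puromycin selection. Baf60c, encoded by Smarcd3, is the heart-enriched subunit of the Brg1-based SWI/SNF chromatin remodelling complex. Both groups were sorted at day 5 and shared the same reporter line, culture on mouse feeder fibroblasts before differentiation, and growth factors. The labels mention pools of ESCs, not single clones, but which shRNA and which pool gave which library is not clear from them, so that p-values reflect no more than how far these libraries lie apart, part of which can be technical. Reads of the 2 libraries of a group differed only somewhat more than counting error gives (chi-square per degree of freedom 1.17 in Baf60c KD, 1.52 in control). How far separate cultures would lie apart is not known.

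Amino acids cannot cross the cell membrane unaided, and solute carriers move them either down their gradient, with sodium or protons, or in exchange for another amino acid. The Slc7 family holds the cationic amino acid transporters, which carry arginine and lysine on their own, and light chains such as Slc7a5 that reach the membrane only when bound to a heavy chain of the Slc3 family. Slc1 members carry glutamate or exchange neutral amino acids, most Slc6 members carry glycine, GABA, taurine or monoamines with sodium, and Slc38 members carry glutamine and other small neutral amino acids. When amino acids run short, the transcription factor Atf4 raises several of these carriers together with the enzymes that make amino acids.

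Reads were expressed by the authors as RPKM, reads scaled to transcript length and to the counted reads of the library, so that levels can be compared between genes. Each library held between 22064092 and 30398452 counted reads. Smarcd3, the targeted gene, had 46.4 and 46.3 RPKM in the Baf60c KD libraries, against 174 and 167 RPKM in the control libraries. Nkx2-5, whose reporter was used for the sort, had 19.6 and 17.0 RPKM in Baf60c KD CPCs and 25.6 and 25.4 RPKM in control CPCs. The cells also differed in other markers. By comparison, 36.1% of all genes tested were called higher in Baf60c KD and 18.2% lower (limma adjusted p under 0.05). All 10 cardiomyocyte markers tested were lower in Baf60c KD CPCs, with summed levels of 2722 to 2778 RPKM in Baf60c KD and 6363 to 6547 RPKM in control libraries, and 8 of 9 cell cycle genes were higher. Of markers of other cells, 5 of 6 fibroblast markers tested were higher (summed over 9 genes, 79.3 to 80.8 RPKM in Baf60c KD and 58.6 to 59.5 RPKM in control), as were 3 of 5 blood markers (summed over 8 genes, 21.6 to 22.6 against 6.42 to 6.92 RPKM, with Ptprc at 0 in every library), 4 of 6 epicardial markers (43.2 to 43.9 against 29.8 RPKM) and 4 of 5 endoderm and epithelial markers. The most abundant fibroblast marker, Pdgfra, was lower, with 33.4 and 35.3 RPKM in Baf60c KD against 41.9 and 42.5 RPKM in control. The fibroblast markers Lum and Dcn had at most 3 reads in any library. Among the genes called in these lists, Wt1 and Tcf21 (epicardial), Postn (fibroblast) and Cdh1 (epithelial) passed the filter on low levels only through the Baf60c KD group, in which they were high, and Nppa (cardiomyocyte) only through control. The endoderm and epithelial list was led by the keratins Krt8 (62.0 and 62.6 RPKM in Baf60c KD against 34.9 and 34.1 RPKM in control) and Krt18 (199 and 202 RPKM in Baf60c KD against 90.0 and 85.3 RPKM in control), whereas its member Ttr was lower. In addition, 4 of 8 endothelial markers were higher and 4 were lower, and 2 of 6 smooth muscle markers were higher and 4 were lower. Of the 4 pluripotency markers tested, Lin28a was higher and Klf2, Klf4 and Tdgf1 were lower. Summed over 9 genes, that list had 121 RPKM in both Baf60c KD libraries against 104 and 107 RPKM in control. Pou5f1 (0.458 and 0.440 against 0.160 and 0.135 RPKM) and Nanog (0.399 and 0.537 against 0.312 and 0.288 RPKM) were under the filter and not tested. Fewer cells of a type and less RNA per cell cannot be told apart in such bulk libraries, and the part of these shifts in the results below was not tested.

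Of the 60 transporters, 29 averaged 0.5 RPKM or more across all 4 libraries and were tested with limma among 11371 genes. A total of 12 were called higher in Baf60c KD CPCs and 9 lower at a limma adjusted p under 0.05, and 8 were not called. Over all genes tested, 36.1% were called higher and 18.2% lower, so that many genes passed the test in these libraries. The median log2 fold change was 0.09 for the 29 transporters and 0.07 for all genes tested. With a log2 fold change beyond 0.58, the 1.5-fold threshold of the study, 4 transporters were higher and 3 were lower, against 4.8% and 3.56% of all genes. The count beyond 1.5-fold lower was 6 with median-ratio factors and 5 with a pseudocount of 0.1 or with voom. With median-ratio factors, 8 transporters were higher and 11 lower in all, where 25.8% of all genes were higher and 25.4% lower. The values of the groups did not overlap for 28 of the 29 transporters, the exception being Slc43a2, nor for 77.4% of all genes tested. All log2 fold changes compare log2(RPKM + 1), and the added 1 makes those of genes with low levels too small. Among called transporters, Slc7a2 (1.70-fold), Slc7a10 (1.58-fold), Slc6a9 (1.51-fold) and Slc7a7 (1.51-fold) thus differed over 1.5-fold in mean RPKM without passing this threshold.

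**Figure D1:**
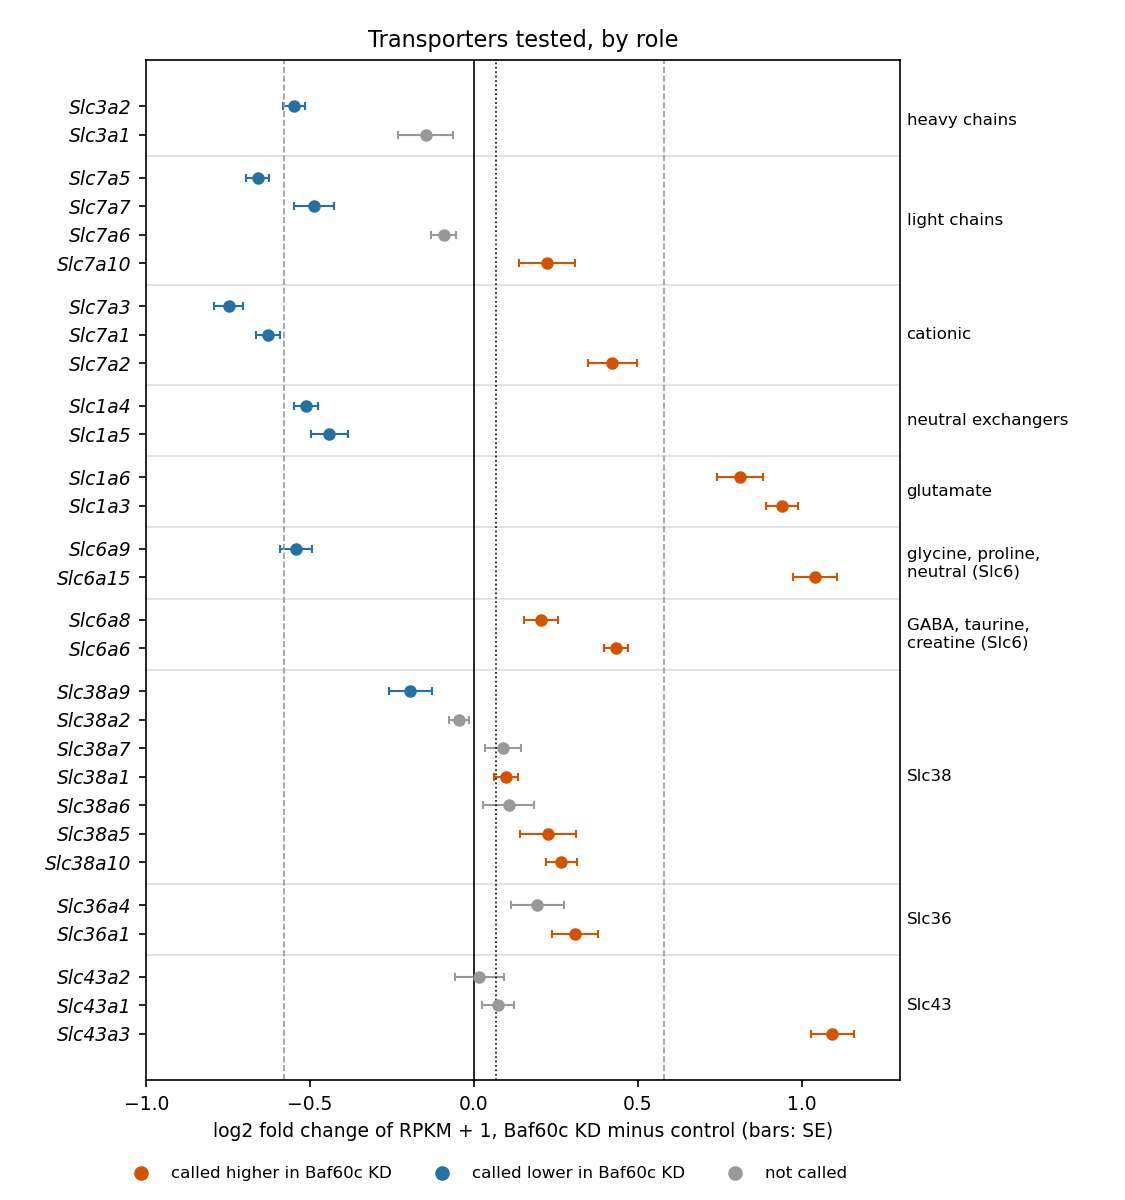
Log2 fold change of RPKM + 1 (x axis, Baf60c KD minus control, bars are SE from limma, 2 libraries per group) of the 29 transporters tested, grouped by role from top to bottom. The dotted line marks the median of all genes tested (0.07) and the dashed lines mark the 1.5-fold threshold. Points of the heteromeric, cationic and neutral exchanger groups lie mostly left of 0, and those of the glutamate carriers and of Slc43a3 lie at the right.

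Transporters called lower included the abundant heavy chain Slc3a2, its light chain Slc7a5, the arginine and lysine carriers Slc7a1 and Slc7a3, both neutral amino acid exchangers of the Slc1 family and the glycine carrier Slc6a9. Transporters called higher included the glutamate carriers Slc1a3 and Slc1a6, the taurine carrier Slc6a6, the neutral amino acid carrier Slc6a15, and Slc43a3, which transports purine nucleobases rather than amino acids. Of the 12 transporters with a mean of 10 RPKM or more, 7 were lower and 3 higher, whereas of the 17 below that level 2 were lower and 9 higher. Among all genes tested, 19.6% of those at 10 RPKM or more were lower and 43.6% higher, and of those below it 17.1% were lower and 30.4% higher. This level was chosen after the values had been seen, and the difference was not tested. Summed over all 60 members, the level was 410.0 and 409 RPKM in the Baf60c KD libraries and 493 and 479 RPKM in the control libraries.

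**Figure D2:**
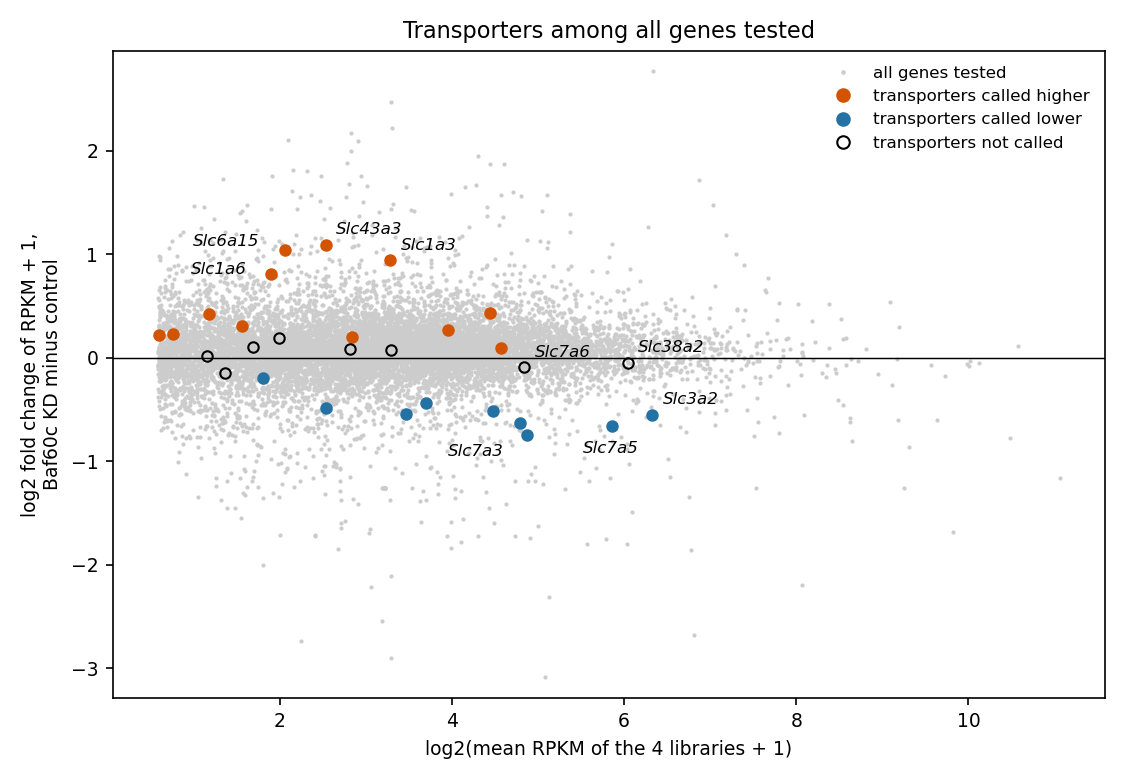
Log2 fold change (y axis, Baf60c KD minus control) against the mean level over the 4 libraries (x axis, log2 of RPKM + 1) for the 11371 genes tested (grey) and the 29 transporters. Slc3a2 and Slc7a5, at the right of the transporters, lie below 0, and Slc38a2 between them lies close to 0.

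Slc3a2, also known as CD98hc, is the heavy chain that escorts most light chains to the membrane, and it was the most abundant member. It lies on mm9 chromosome 19 (8781372 to 8797859, minus strand). Slc3a2 had 63.3 and 65.1 RPKM in the Baf60c KD libraries and 96.8 and 92.3 RPKM in the control libraries. Both Baf60c KD libraries were thus below both control libraries, and Slc3a2 fell by 0.55 on the log2 scale (SE 0.03, limma adjusted p = 9.4e-07). The other heavy chain, Slc3a1, which serves cystine uptake in kidney, was low, with 1.29 and 1.61 RPKM in Baf60c KD and 1.67 and 1.74 RPKM in control libraries. Slc3a1 was not called (log2 fold change −0.15, SE 0.08, adjusted p = 0.16 by limma).

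Of the 10 light chains, 4 were tested, 2 were lower, 1 was higher and 1 was not called. Slc7a5 (LAT1), the carrier of leucine and other large neutral amino acids, lies on mm9 chromosome 8 (124405052 to 124431594, minus strand) and had 44.8 and 43.1 RPKM in Baf60c KD CPCs and 71.1 and 68.9 RPKM in control CPCs. The level in Baf60c KD was 0.628 times that in control, and Slc7a5 fell by 0.66 on the log2 scale (SE 0.03, limma adjusted p = 3.4e-07). Slc7a6 (y+LAT2), the arginine and glutamine exchanger, was the second most abundant light chain. It had 27.3 and 26.1 RPKM in Baf60c KD and 28.6 and 28.5 RPKM in control libraries. The groups lay close together, and Slc7a6 was not called (log2 fold change −0.09, SE 0.04, limma adjusted p = 0.062), although it was called lower with median-ratio scaling and with voom. Slc7a7 (y+LAT1), which shares that exchange activity, was lower (log2 fold change −0.49, SE 0.06). The only light chain called higher was Slc7a10, a carrier of small neutral amino acids, at 0.636 and 0.628 RPKM in Baf60c KD against 0.333 and 0.468 RPKM in control, so that it passed the filter through its Baf60c KD level. It rested on 15 to 37 reads per library (limma adjusted p = 0.0486), a call that was lost with voom (adjusted p = 0.0544), with median-ratio scaling (0.0812) and when Baf60c KD 1, Baf60c KD 2 or control 1 was left out (0.147 to 0.198).

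Slc7a5 and Slc7a6 thus stood in different proportions. There were 1.64 and 1.65 RPKM of Slc7a5 per RPKM of Slc7a6 in the Baf60c KD libraries, against 2.49 and 2.42 in the control libraries. The level of Slc3a2 relative to its 6 light chains summed was 0.825 and 0.880 in Baf60c KD and 0.909 and 0.887 in control libraries. Both of these ratios were lower in Baf60c KD, whereas the level of Slc3a2 relative to Slc7a5 alone was higher, at 1.41 and 1.51 in Baf60c KD and 1.36 and 1.34 in control libraries. With 2 libraries per group an exact two-sided permutation test cannot go below p = 0.333.

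Slc7a8 (LAT2) and Slc7a11 (xCT) were under the filter. Slc7a8 had 0.0547 and 0.0818 RPKM in Baf60c KD and 0.0428 and 0.0451 RPKM in control libraries, from 4 to 10 reads each, too few to show a difference at this depth. Slc7a11, which takes up cystine in exchange for glutamate and so supplies cysteine for glutathione, had 0.196 and 0.139 RPKM in Baf60c KD CPCs and 0.327 and 0.551 RPKM in control CPCs. These values stand for 41 and 39 reads in Baf60c KD and 70 and 112 reads in control. The groups did not overlap, and Slc7a11 was lower in fits that kept such low genes, namely limma with no filter (log2 fold change −0.30, SE 0.08, adjusted p = 0.027) and voom on genes with 10 reads or more (−1.40, SE 0.21, adjusted p = 3.4e-10), the second of which was chosen after the data had been seen. The remaining light chains were at 0 or had few reads.

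**Figure D3:**
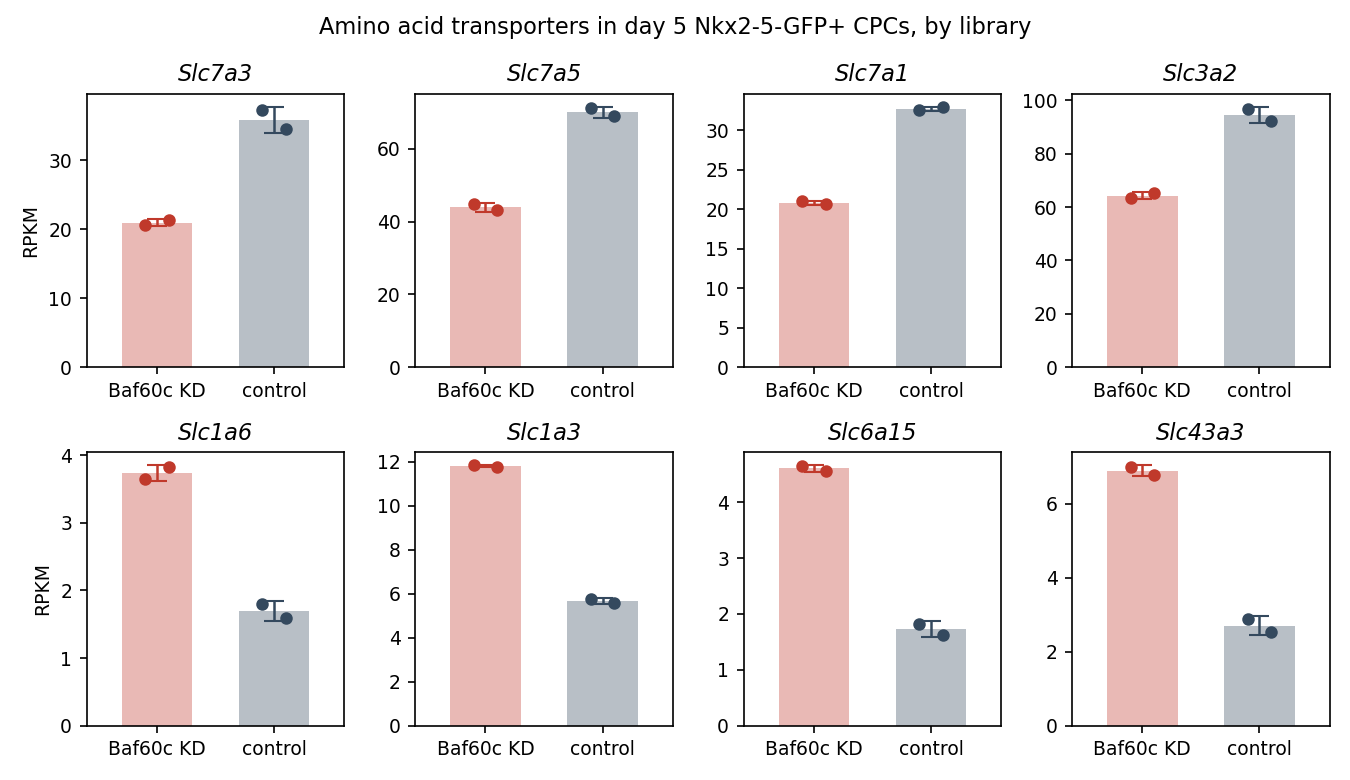
RPKM (y axis, each panel with its own scale from 0) of the 7 transporters called beyond 1.5-fold and of the heavy chain Slc3a2 in Baf60c KD (red) and control (grey) libraries. Bars are group means, error bars are SD (n = 2) and points are libraries. The upper row shows genes lower in Baf60c KD and the lower row genes higher in Baf60c KD, and in no panel do the groups overlap.

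Of the 3 cationic amino acid transporters tested, 2 were lower and 1 was higher. Slc7a3 (CAT3), on mm9 chromosome X (98274549 to 98281359, minus strand), had 20.5 and 21.3 RPKM in Baf60c KD CPCs and 37.2 and 34.5 RPKM in control CPCs. Slc7a3 was lower in Baf60c KD (log2 fold change −0.75, SE 0.04, limma adjusted p = 8.2e-07). Slc7a1 (CAT1), the widely expressed arginine carrier on mm9 chromosome 5 (149138986 to 149211480, minus strand), had 21.0 and 20.6 RPKM in Baf60c KD and 32.5 and 32.9 RPKM in control libraries. Slc7a1 fell by 0.63 on the log2 scale (SE 0.04, limma adjusted p = 6.6e-07). Slc7a2 (CAT2), best known from liver and macrophages, was higher, with a log2 fold change of 0.42 (SE 0.07, limma adjusted p = 0.0011), at a level of 1.56 and 1.61 RPKM in Baf60c KD against 0.877 and 0.982 RPKM in control. The level of Slc7a1 relative to Slc7a2 was 13.4 and 12.8 in the Baf60c KD libraries and 37.1 and 33.5 in the control libraries. Summed over the 5 genes of this group, the level was 43.4 ± 0.386 RPKM in Baf60c KD and 69.7 ± 1.51 RPKM in control (SD, n = 2 each). The other members, Slc7a4 and Slc7a14, were under the filter.

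In the Slc1 family both neutral amino acid exchangers were called lower, and the 2 of 5 glutamate transporters that were tested were called higher. Slc1a4 (ASCT1), the exchanger of serine and alanine, had 17.4 RPKM in both Baf60c KD libraries and 25.2 RPKM in both control libraries. It fell by 0.51 on the log2 scale (SE 0.04, limma adjusted p = 3.2e-06). Slc1a5 (ASCT2), a main route of glutamine into dividing cells, had 9.84 and 10.3 RPKM in Baf60c KD and 14.8 and 13.2 RPKM in control libraries. Slc1a5 fell by 0.44 on the log2 scale (SE 0.06, limma adjusted p = 0.00015).

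Slc1a3 (EAAT1, or GLAST), a sodium-driven glutamate and aspartate carrier known from astrocytes, lies on mm9 chromosome 15 (8584124 to 8660764, minus strand) and had 11.8 RPKM in both Baf60c KD libraries and 5.77 and 5.57 RPKM in the control libraries. Its level in Baf60c KD was 2.08 times that in control (log2 fold change 0.94, SE 0.05, limma adjusted p = 3.5e-07). Slc1a6 (EAAT4), known from cerebellar Purkinje cells, lies on mm9 chromosome 10 (78243241 to 78277570, plus strand). Slc1a6 had 3.65 and 3.82 RPKM in Baf60c KD and 1.80 and 1.59 RPKM in control libraries, 2.20 times as much on average (log2 fold change 0.81, SE 0.07, limma adjusted p = 1.2e-05). The level of Slc1a4 relative to Slc1a3 was 1.47 and 1.48 in Baf60c KD and 4.37 and 4.53 in control libraries. The other glutamate transporters, Slc1a1, Slc1a2 and Slc1a7, were not tested. Slc1a1 had means of 0.0238 RPKM in Baf60c KD and 0.0417 RPKM in control, Slc1a2 had 0.0314 RPKM in Baf60c KD and 0.0615 RPKM in control, and Slc1a7 had 0.0129 RPKM in Baf60c KD and no read in control. Of 10 neural and glial markers, 3 were tested. Sox2 was higher and passed the filter only through Baf60c KD, with 80 and 127 reads there and 8 and 4 reads in control, and the other 2 were lower. Olig2 was at 0 in every library and Gfap in all but control 2 (0.0167 RPKM), and the summed level of the 10 was 5.31 to 5.80 RPKM in Baf60c KD and 6.03 to 6.47 RPKM in control libraries.

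Of the 19 Slc6 members 4 were tested. Slc6a9 (GlyT1), which takes up glycine, had 8.25 and 7.82 RPKM in Baf60c KD CPCs and 12.3 and 12.0 RPKM in control CPCs. Slc6a9 fell by 0.54 on the log2 scale (SE 0.05, limma adjusted p = 1.4e-05), and its exons share bases with those of B4galt2, Ccdc24 and Gm17114 on the other strand. Slc6a15 (B0AT2), a carrier of branched-chain amino acids and proline that is known from brain, lies on mm9 chromosome 10 (102830477 to 102882011, plus strand). It moved the other way, with 4.65 and 4.56 RPKM in Baf60c KD and 1.83 and 1.62 RPKM in control libraries. Its level in Baf60c KD was 2.67 times that in control (log2 fold change 1.04, SE 0.07, limma adjusted p = 1.7e-06). Slc6a6, the taurine carrier, was the most abundant member of the family, with 24.2 and 23.8 RPKM in Baf60c KD and 17.6 and 17.5 RPKM in control libraries. Slc6a6 rose by 0.43 on the log2 scale (SE 0.04, limma adjusted p = 1.1e-05), and Slc6a8, the creatine carrier, by 0.21 (SE 0.05, limma adjusted p = 0.0082). The call for Slc6a8 was lost with median-ratio scaling (adjusted p = 0.0507).

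Among Slc6 members under the filter, the GABA and taurine carrier Slc6a13 lay just below it, at a mean of 0.495 RPKM. Slc6a13 had 0.351 and 0.200 RPKM in Baf60c KD and 0.686 and 0.744 RPKM in control libraries, and it was lower with no filter (log2 fold change −0.43, SE 0.07, limma adjusted p = 0.0051) and with voom on genes with 10 reads or more (−1.47, SE 0.34, adjusted p = 4.7e-05). Slc6a4, the serotonin carrier, had 0.113 and 0.120 RPKM in Baf60c KD against 0.315 and 0.232 RPKM in control, from 7 to 20 reads per library (log2 fold change −0.19, SE 0.04, limma adjusted p = 0.015 with no filter, and −1.19, SE 0.44, adjusted p = 0.014 with voom on genes with 10 reads or more).

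In the Slc38 family, the 7 members tested of 10 had log2 fold changes between −0.19 and 0.27, of which 3 were called higher and 1 lower. Slc38a2 (SNAT2), the sodium-coupled carrier of small neutral amino acids that cells raise when amino acids run short, had 63.3 and 64.4 RPKM in Baf60c KD CPCs and 66.1 and 65.8 RPKM in control CPCs. It was the second most abundant transporter and was not called (log2 fold change −0.05, SE 0.03, limma adjusted p = 0.22). It was called lower with median-ratio scaling (log2 fold change −0.12) and with voom (−0.07). Slc38a1 (SNAT1), a related glutamine carrier, had 23.5 RPKM in both Baf60c KD libraries and 22.1 and 21.7 RPKM in the control libraries (log2 fold change 0.10, SE 0.04, limma adjusted p = 0.047). This call was lost in 7 of 14 alternatives, among them median-ratio scaling and leaving out Baf60c KD 1, Baf60c KD 2 or control 2 (adjusted p = 0.122 to 0.188).

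Of the other Slc38 members, Slc38a10 rose by 0.27 on the log2 scale (SE 0.05, limma adjusted p = 0.00097), and Slc38a9, the lysosomal arginine sensor upstream of mTORC1, fell by 0.19 (SE 0.07, limma adjusted p = 0.032), a call lost when any 1 library was left out (adjusted p = 0.0535 to 0.133). Slc38a5 was called higher at 0.930 and 0.730 RPKM in Baf60c KD against 0.559 and 0.564 RPKM in control, but not in 8 of 13 alternatives, among them leaving out Baf60c KD 1, control 1 or control 2 (adjusted p = 0.078 to 0.353). The other members tested, Slc38a6 and Slc38a7, were not called (log2 fold changes 0.11 and 0.09). Summed over the 10 genes, the Slc38 level was 115 RPKM in both Baf60c KD libraries, and 113 and 112 RPKM in the control libraries.

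In the Slc36 family of proton-coupled carriers, which act at the lysosome and the plasma membrane, Slc36a1 had 2.19 and 2.33 RPKM in Baf60c KD CPCs and 1.59 and 1.68 RPKM in control CPCs. Slc36a1 rose by 0.31 on the log2 scale (SE 0.07, limma adjusted p = 0.0049). Slc36a4 had 3.30 and 3.20 RPKM in Baf60c KD and 3.00 and 2.45 RPKM in control libraries, and was not called (log2 fold change 0.19, SE 0.08, limma adjusted p = 0.067), except when control 1 was left out (0.0073). In the Slc43 family, Slc43a1 (LAT3), a facilitated carrier of leucine and other large neutral amino acids, had 9.02 and 9.05 RPKM in Baf60c KD and 8.76 and 8.34 RPKM in control libraries, and was not called (log2 fold change 0.07, SE 0.05, limma adjusted p = 0.24), nor was the related Slc43a2 (0.02, SE 0.07). Slc43a3, the nucleobase carrier, had 6.997 and 6.780 RPKM in Baf60c KD and 2.88 and 2.52 RPKM in control libraries. Slc43a3 was higher in Baf60c KD (log2 fold change 1.09, SE 0.07, limma adjusted p = 9.5e-07), and lies on mm9 chromosome 2 (84776736 to 84798666, plus strand), as does Slc43a1 (84679007 to 84703751, plus strand).

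**Figure D4:**
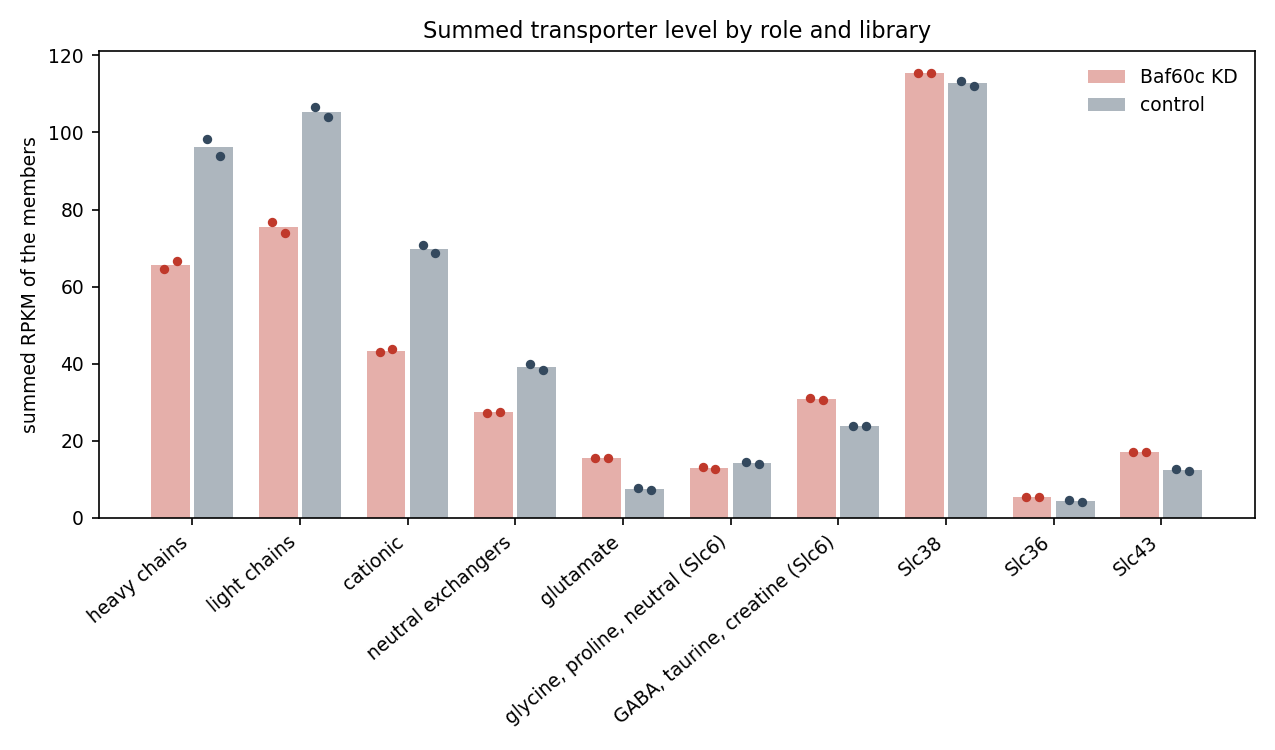
Summed RPKM (y axis) of all members of each role group in Baf60c KD (red, left bar) and control (grey, right bar) libraries. Bars are group means and points are the 2 libraries of each group. Heavy chains, light chains, cationic transporters, neutral exchangers and Slc6 carriers of glycine, proline and neutral amino acids have lower bars in Baf60c KD. Glutamate transporters, Slc6 carriers of GABA, taurine and creatine, Slc43 and Slc36 have higher ones. The Slc38 bars are close, at 115 and 113 RPKM.

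Of the 31 members not tested, 9 had no read in any library, 9 had between 1 and 9 reads over the 4 libraries and 13 had 10 or more. The 9 without a read were Slc6a5, Slc6a11, Slc6a12, Slc6a18, Slc6a19, Slc6a21, Slc7a13, Slc7a15 and Slc36a3, which includes the kidney and gut carriers Slc6a18 and Slc6a19 and the neuronal glycine carrier Slc6a5. A count of 0 allows up to 3 reads, which for these transcripts is 0.023 to 0.079 RPKM, a limit that covers counting error only. With limma and no filter, 51 transporters entered the fit, and 10 were called higher and 12 lower, where 25.3% of the 16061 genes in that fit were higher and 13.3% lower. Of the members with reads outside the main test, Slc7a11, Slc6a13 and Slc6a4 were lower in that fit. Slc6a17, a vesicle carrier of neutral amino acids in neurons, had 10 and 15 reads in Baf60c KD and 1 and 4 reads in control libraries. It was not called with no filter (limma adjusted p = 0.058) and was higher with voom on genes with 10 reads or more (log2 fold change 2.08, SE 0.61, adjusted p = 0.0017).

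Transcripts of 1 gene share reads, and for the 11 members with several transcripts tested all transcripts pointed the same way. Their log2 fold changes differed by at most 0.09 (Slc38a10) and otherwise by at most 0.04. Reads of both strands had been counted, and 6 of the transporters tested share exon bases with a gene on the other strand, so that their levels are uncertain. Besides Slc6a9 these were Slc7a7 with Oxa1l, Slc7a10 with Lrp3, Slc7a2 with Gm17475, Slc38a10 with Gm11769 and Slc3a1 with Prepl.

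A total of 4 lists of related genes were read beside the transporters. Their counts are to be set against 36.1% of all genes tested that were called higher and 18.2% called lower. These lists were chosen with earlier results of these data known, so that their counts are a description and no independent support. Of the 22 genes of the amino acid response tested, which are Atf4, eIF2 pathway genes upstream of it, its known targets and the enzymes of serine, proline and cysteine synthesis, 20 were lower in Baf60c KD CPCs and 1 higher, with a median log2 fold change of −0.58 against 0.07 for all genes. Nupr1 was among them and passed the filter only through its control level. Atf5, a related transcription factor, had 31.7 and 32.2 RPKM in Baf60c KD and 68.6 and 67.1 RPKM in control libraries (log2 fold change −1.06, SE 0.03). Trib3, which restrains Atf4, had 7.38 and 6.54 RPKM in Baf60c KD and 23.2 and 22.6 RPKM in control libraries (−1.59, SE 0.06). Asns, which makes asparagine, had 173 and 169 RPKM in Baf60c KD and 258 and 252 RPKM in control libraries (−0.58, SE 0.02), and Atf4 itself 119 RPKM in both Baf60c KD libraries and 170 and 169 RPKM in control libraries (−0.51, SE 0.02). The other 2 genes tested were Eif2ak4, a kinase of eIF2, which was not called (log2 fold change 0.12, SE 0.05), and Eif2s1, a subunit of the translation initiation factor eIF2, which was higher (0.15, SE 0.04).

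Of the 24 amino acid sensing genes upstream of mTORC1 tested, 6 were higher, 3 lower and 15 not called, with a median log2 fold change of 0.07. For this list and those that follow, the shares over all genes tested were again 36.1% higher and 18.2% lower. Sesn2, a leucine sensor that the amino acid response list also holds, was lower (18.2 and 16.8 RPKM in Baf60c KD, 32.3 and 30.5 RPKM in control), and so was Rheb, the activator of mTORC1 (42.4 and 42.7 against 51.2 and 53.7 RPKM). Tsc1 and Sesn3 were higher, by 0.29 and 0.42 on the log2 scale. Of the 11 glutathione genes tested, 4 were higher, 3 lower and 4 not called. Chac1, which breaks down glutathione and stands in the amino acid response list too, fell by 0.99 on the log2 scale, whereas Txnrd1 rose by 0.51 and Nfe2l2, the factor that drives antioxidant genes, by 0.43. Of the 11 amino acid carriers outside the families above that were tested, 3 were higher and 2 lower. The higher ones were Slc25a38 (log2 fold change 0.33), Slc25a22 (0.25) and Slc25a44 (0.16). The lower ones were the mitochondrial aspartate and glutamate carrier Slc25a12 (−0.49) and the aromatic amino acid carrier Slc16a10 (−0.43).

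**Figure D5:**
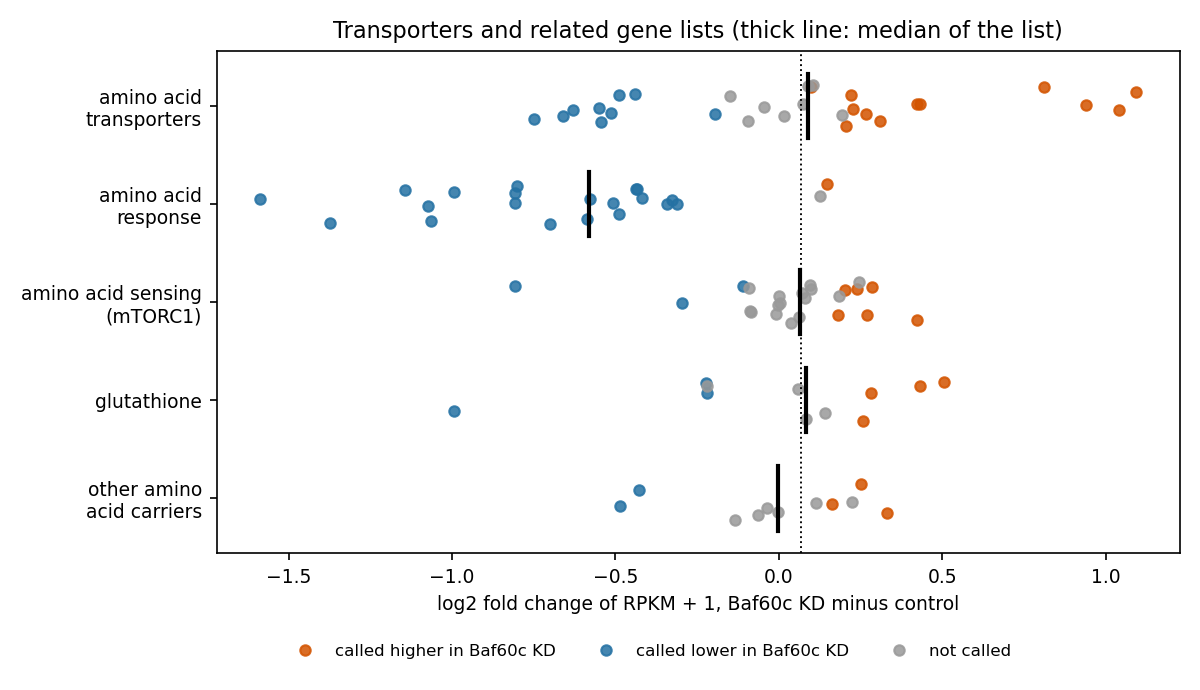
Log2 fold change (x axis, Baf60c KD minus control) of each gene tested in the transporter set and in 4 related lists, with a thick line at each median and a dotted line at the median of all genes tested (0.07). Points of the amino acid response list lie left of 0 except for 2 genes, and points of the other lists lie on both sides.

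Promoter sequences were at hand for 42 of the transporters, 6 of them called higher and 6 lower, from RefSeq on build GRCm38.p6, each from 250 bases before to 50 bases after a transcription start. They were searched on both strands for TGATGNAA, the composite site of C/EBP and ATF factors through which Atf4 acts, and for TGACNNNGC, the core of the antioxidant response element bound by Nfe2l2. No promoter of a transporter held both motifs. Slc7a3 and Slc7a5, both called beyond 1.5-fold lower, were among the members without a promoter sequence and were not searched. TGATGNAA stood in 5 of the 61 promoters of transporters (8.2%), which belong to 4 genes, and in 3.97% of all 32851 promoters in the table. Promoters of the same gene can overlap and share a site, as those of Slc7a7 did and, for TGACNNNGC, those of Slc7a6. TGATGNAA was found for Slc1a4 and Slc7a7, both lower in Baf60c KD, for Slc7a11, which was lower in fits that kept low genes, and for Slc6a21, which had no read. It stood in none of the 6 promoters of transporters called higher and in none of the 10 of transporters not called, numbers in which a share of 3.97% would give few or none. The windows of Slc7a11, Slc1a4 and Slc7a7 are shown because they hold the motif within 160 bases before to 20 bases after the start and their genes had reads (Slc6a21 holds it there too and is not shown), with the motif in capitals (TTGCATCA is its reverse complement).
Slc7a11, chr3:50443594-50443773, minus strand: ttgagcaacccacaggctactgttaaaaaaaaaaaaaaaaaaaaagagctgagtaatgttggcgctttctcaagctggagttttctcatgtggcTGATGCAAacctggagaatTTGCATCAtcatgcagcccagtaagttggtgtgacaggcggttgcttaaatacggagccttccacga
Slc1a4, chr11:20332694-20332873, minus strand: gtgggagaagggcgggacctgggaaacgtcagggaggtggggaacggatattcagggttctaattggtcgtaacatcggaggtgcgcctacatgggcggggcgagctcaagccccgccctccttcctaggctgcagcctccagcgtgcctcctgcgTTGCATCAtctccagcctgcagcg
Slc7a7, chr14:54417925-54418104, minus strand: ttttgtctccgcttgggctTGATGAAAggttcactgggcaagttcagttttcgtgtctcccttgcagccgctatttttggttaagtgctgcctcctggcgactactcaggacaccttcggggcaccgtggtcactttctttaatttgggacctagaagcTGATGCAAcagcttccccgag
In Slc7a11 the motif stood in both orientations, starting at −66 and at −47 from the start. In Slc1a4 it lay across the start, at −4, and in Slc7a7 at −141 and again at −1. TGACNNNGC stood in 11 of the 61 promoters (18.0%), which belong to 9 genes, and in 12.4% of all promoters. It was found for Slc7a1 and Slc6a9, which were lower, for Slc36a1, which was higher, for Slc38a2, Slc43a1 and Slc7a6, which were not called, and for Slc6a11, Slc6a13 and Slc6a16, which were not tested. These are matches of letters and not measured binding.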

How the data were processed

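RNA-seq of 4 libraries, 2 of Baf60c KD and 2 of control day 5 CPCs, was grouped by sample labels. Per the study's methods the authors mapped reads with STAR to mm9, counted exons of RefSeq transcripts on both strands with HOMER, and deposited RPKM values computed with edgeR; the deposited fold changes and p-values of DESeq2 were not used. The first 31507 of 35707 rows of the table entered the tests, and the last 4200, noncoding and normalised separately, did not. Some rows of the first part were of noncoding transcripts too, among them the row read for Atf5. RPKM times length and library total gave whole reads for 100% of values (tolerance 0.001 reads).

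Limma (version 3.58.1, R 4.3.3) was fitted to log2(RPKM + 1) of 1 transcript per gene, with a mean of at least 0.5 RPKM, trend and robust variance priors and Benjamini-Hochberg adjustment over all genes, called under 0.05; the script was tested on simulated data. Members and lists were chosen with earlier results of these data known. Values are given by library for members called beyond 0.58 (log2), for the 2 most abundant members of each family, for both heavy chains and for Slc7a5, Slc7a8 and Slc7a11, and others were named after their values were seen. Alternatives were another pseudocount (0.1), other filters (none or 2 RPKM), median-ratio factors, voom on recovered reads, no trend, other transcripts, a replicate block, and each library left out. Depth was 22064092 to 30398452 reads, counting a read in each transcript it fits. Positions are from GENCODE M1.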

Additional observations from a re-analysis of the deposited data

How the results depend on the processing

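Of the 21 transporters called, 16 kept their direction and their call under every alternative in which they were tested, and all 21 kept their direction there. The filter of 2 RPKM left Slc36a1, Slc7a2, Slc38a5 and Slc7a10 untested, and 8 transporters were called higher with it. The calls that were lost under some setting were those of Slc38a1, Slc38a5, Slc6a8, Slc7a10 and Slc38a9. Transporters called beyond 1.5-fold lower numbered 5 with a pseudocount of 0.1, 6 with median-ratio factors and 5 with voom, against 3 in the main fit. Voom on genes with 10 reads or more, added after seeing the data, tested 42 transporters and gave 11 higher and 14 lower (31.7% and 20.002% of 13779 genes), 8 of them beyond 1.5-fold lower. Voom on the 29 tested in the main fit gave 10 higher and 11 lower (35.4% and 22.0% of 11371 genes). Median-ratio factors lowered the median of all genes to 0.0021, with 50.3% of calls higher over all genes (66.4% in the main fit) and 8 transporters higher and 11 lower. The uncalled Slc43a2 changed sign with median-ratio factors (−0.027), and its values lay between −0.014 and 0.047 when 1 library was left out. Leaving out 1 library gave 9 to 11 transporters higher and 8 lower, and 3 to 4 beyond 1.5-fold lower. With the replicate number as a block, 9 were higher and 9 lower. Replicate differences of the groups had a correlation of 0.0242 over 11371 genes and the labels do not tie the numbers, so that the libraries share only a number. With 2 libraries per group the spread is poorly known, and members under 0.5 RPKM rest on few reads.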
